A study of Mus musculus with 20 samples.

Results

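The 10 genes described here are Adipoq, Lep, Retn, Cfd, Plin1, Plin4, Cidec, Fabp4, Car3 and Pck1, which are strongly expressed in white fat and were picked by symbol from the 35226 genes of the table. They were followed across 20 subcutaneous tumors of LLC1, a mouse Lewis lung carcinoma line, with 5 tumors in each of 4 treatment groups, to describe how much RNA of host fat each tumor carried and whether that amount differed among the treatments. The hosts were male C57Bl6/J mice aged 8 to 10 weeks, which carried LLC1 cells (given in PBS and Matrigel) under the skin of the right flank. Allocation to treatment was random and took place at a set tumor size. The vehicle group received the carrier solution, the KW6002 group received istradefylline (KW6002), an adenosine receptor antagonist, the cisplatin group received the platinum chemotherapeutic cisplatin, and the cotreatment group received both drugs. All 20 libraries came from bulk tumor RNA, 1 library per tumor, and the label of vehicle replicate 1 was worded differently from those of the other vehicle tumors. Nothing in the labels says how much surrounding tissue was taken with a tumor, and no gene list that defines LLC1 cells was used, so the labelled tissue was not checked.

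White adipocytes store triglyceride in a single large lipid droplet and release hormones into the blood. Adipoq (adiponectin), Lep (leptin) and Retn (resistin) encode such hormones, Cfd encodes adipsin, a complement protease that fat secretes, and Plin1, Plin4 and Cidec encode proteins that coat or enlarge the lipid droplet. Fabp4 carries fatty acids inside the cell and is also made by endothelial cells and macrophages, Car3 is a carbonic anhydrase of fat that skeletal muscle also makes, and Pck1 encodes an enzyme of glycerol synthesis in fat and of glucose production in liver and kidney. Plin4 is also found in muscle. A layer of white fat and, below it, a sheet of muscle lie beneath mouse skin, where these tumors grew.

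Levels are given as counts per M reads (CPM) over library sizes with TMM scaling, a trimmed-mean method, and totals ranged from 28.4 to 41 M reads per tumor. Of the 10 genes, 9 had enough counts to be among the 16665 genes tested, while Lep had too few. A gene was called changed at a Benjamini-Hochberg adjusted P value under 0.05 in the quasi-likelihood test of edgeR with an absolute log2 fold change of at least 0.32. Library codes fell into an earlier run of 8 tumors and a later run of 12 tumors, and the labels do not say what the codes mark. The earlier run held 1 of 5 vehicle tumors, 2 of 5 KW6002 tumors, 2 of 5 cisplatin tumors and 3 of 5 cotreated tumors. The 5 genes taken as most restricted to adipocytes (Adipoq, Plin1, Cidec, Lep and Retn) summed to between 0.229 and 32.4 CPM in the earlier run (median 2.28) and to between 0.222 and 74.5 CPM in the later run (median 0.864). At least 100 Adipoq reads were found in 3 of the 8 earlier tumors and in 2 of the 12 later ones.

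The amount of fat RNA varied widely between tumors of the vehicle and KW6002 groups and less between cisplatin tumors. Summed over the 10 genes, vehicle replicates 1 to 5 had 28.8, 462, 41.5, 22.1 and 29.6 CPM. KW6002 replicates 1 to 5 had 226, 46.7, 19.4, 127 and 43.9 CPM. A single vehicle tumor, replicate 2, and a pair of KW6002 tumors, replicates 1 and 4, stood above all others in these groups. Cisplatin replicates 1 to 5 had 17, 13.6, 16.9, 37.9 and 25.7 CPM, and cotreatment replicates 1 to 5 had 105, 74.9, 33.1, 63.7 and 29 CPM. The ranges of all 4 groups overlapped. The group means were 117 ± 193 CPM for vehicle, 92.7 ± 84.9 CPM for KW6002, 22.2 ± 9.85 CPM for cisplatin and 61.1 ± 31.3 CPM for cotreatment (SD, n = 5), whereas the medians were 29.6, 46.7, 17 and 63.7 CPM in the same order. Vehicle thus had the highest mean but not the highest median. In bulk tumors, fewer adipocytes and less RNA per adipocyte cannot be told apart.

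The sum was carried mainly by Fabp4 where fat RNA was scarce. Fabp4 made up 36.5% of the sum in vehicle replicate 2 and 36.9% in KW6002 replicate 1, but 96.6% in KW6002 replicate 3 and 95.1% in vehicle replicate 4. The sum of the 5 restricted genes therefore separated the tumors more widely. It was 0.76, 74.5, 0.751, 0.248 and 0.359 CPM in vehicle replicates 1 to 5 and 32.4, 3.68, 0.222, 15.9 and 1.55 CPM in KW6002 replicates 1 to 5. It was 0.406, 0.229, 0.605, 2.33 and 0.976 CPM in cisplatin replicates 1 to 5 and 14.4, 9.29, 0.887, 2.12 and 0.343 CPM in cotreatment replicates 1 to 5. Apart from vehicle replicate 2, the vehicle tumors lay within the range of the cisplatin tumors. The restricted sum had means of 15.3 ± 33.1, 10.7 ± 13.6, 0.909 ± 0.842 and 5.4 ± 6.18 CPM (SD, n = 5) and medians of 0.751, 3.68, 0.605 and 2.12 CPM in vehicle, KW6002, cisplatin and cotreatment. Its highest median was thus in KW6002, whereas that of the 10-gene sum was in cotreatment, at replicate 4, a tumor with much skeletal muscle RNA (described with Plin4). The highest tumor was 336-fold above the lowest, vehicle replicate 2 alone held 46% of the restricted CPM of the 20 tumors, and the 5 highest tumors (vehicle replicate 2, KW6002 replicates 1 and 4, and cotreatment replicates 1 and 2) held 90.5%.

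**Figure D1:**
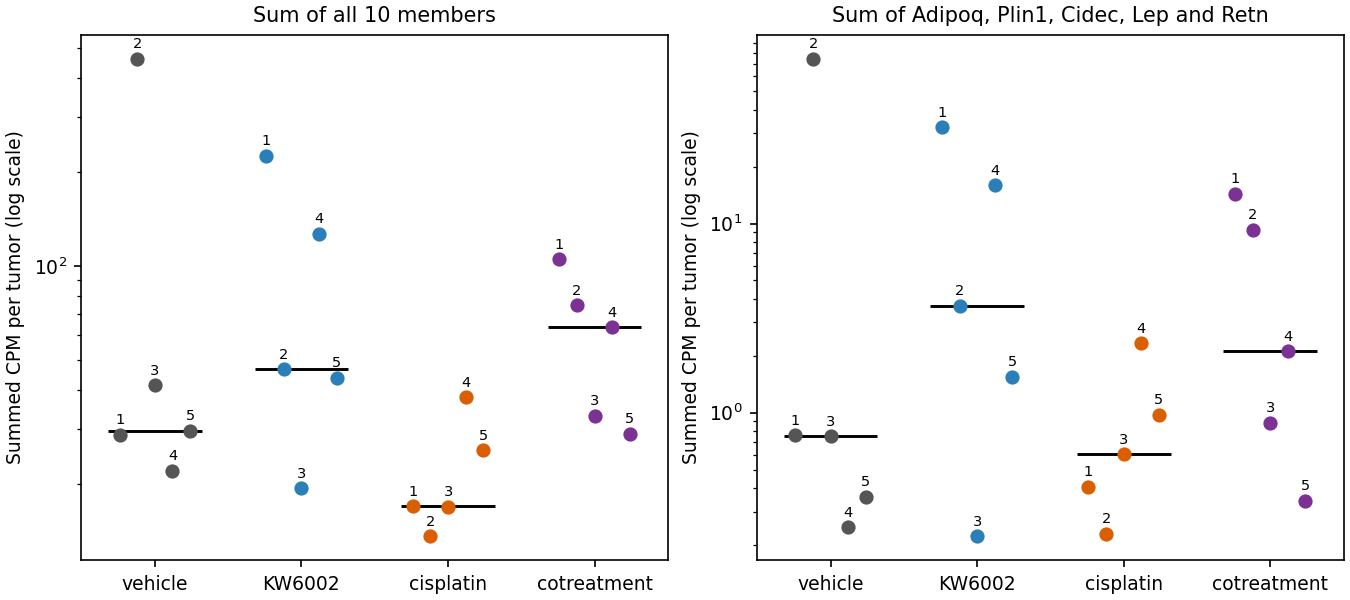
CPM summed over the 10 genes (left) and over the 5 restricted genes (right), on log axes, with 1 point per tumor marked by its replicate number and a bar at the median of each group of 5. Vehicle replicate 2 lies at 462 and 74.5 CPM, and in the right panel the other vehicle tumors lie within the range of the cisplatin tumors.

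Among the secreted products, the same few tumors were high. Adipoq was at 0.449, 26.6, 0.49, 0.055 and 0.228 CPM in vehicle replicates 1 to 5 and at 12.8, 1.71, 0.19, 6.37 and 0.904 CPM in KW6002 replicates 1 to 5. Adipoq was at 0.338, 0.178, 0.242, 0.828 and 0.345 CPM in cisplatin replicates 1 to 5 and at 5.19, 3, 0.341, 1.1 and 0.187 CPM in cotreatment replicates 1 to 5. The lowest tumor of each group lay between 0.055 and 0.19 CPM, and the 4 groups overlapped. Retn ranged from 0.0345 to 10.5 CPM in vehicle (median 0.138), from 0.0317 to 5.69 CPM with KW6002 (median 0.838), from 0.0254 to 0.613 CPM with cisplatin (median 0.0908) and from 0.0936 to 4.55 CPM with cotreatment (median 0.341). Cfd ranged from 0.163 to 62.3 CPM in vehicle (median 0.62), from 0.0633 to 40.2 CPM with KW6002 (median 2.9), from 0.182 to 2.45 CPM with cisplatin (median 0.304) and from 0.218 to 15.5 CPM with cotreatment (median 3.06). For both genes the top tumor of vehicle was replicate 2, that of KW6002 was replicate 1, that of cisplatin was replicate 4 and that of cotreatment was replicate 1.

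Lep was the member nearest to absence. Its read counts were 1, 137, 0, 1 and 0 in vehicle replicates 1 to 5 and 51, 4, 0, 17 and 0 in KW6002 replicates 1 to 5. They were 0, 0, 3, 0 and 4 in cisplatin replicates 1 to 5 and 6, 0, 3, 4 and 0 in cotreatment replicates 1 to 5. Only 7 tumors had more than 3 reads, and 3 reads is about the one-sided 95% upper limit that a count of 0 allows. Vehicle replicate 2 held 62.5% of the Lep CPM summed over the 20 tumors.

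The lipid droplet genes were also high in a few tumors only. Plin1 read counts were 0, 263, 0, 0 and 0 in vehicle replicates 1 to 5 and 107, 10, 0, 59 and 1 in KW6002 replicates 1 to 5. They were 0, 0, 1, 5 and 2 in cisplatin replicates 1 to 5 and 48, 27, 1, 5 and 0 in cotreatment replicates 1 to 5. The group with the highest Plin1 tumor was thus also the one with the most tumors at 0. Cidec was at 0.242, 23.4, 0.0979, 0.0275 and 0.0652 CPM in vehicle, at 8.95, 0.677, 0, 4.13 and 0.362 CPM with KW6002, at 0.0338, 0.0254, 0.151, 0.736 and 0.287 CPM with cisplatin and at 3.33, 2.15, 0.0682, 0.578 and 0.0624 CPM with cotreatment. Its high tumors were those of Plin1.

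Plin4 was at 0.622, 37.9, 0.359, 0.11 and 0.13 CPM in vehicle replicates 1 to 5 and at 11.8, 2.42, 0.222, 6.31 and 1.74 CPM in KW6002 replicates 1 to 5. It was at 1.22, 0.178, 1.54, 0.521 and 1.84 CPM in cisplatin replicates 1 to 5 and at 8.73, 2.51, 1.88, 8.37 and 0.562 CPM in cotreatment replicates 1 to 5. Unlike Cidec, Plin4 was high in cotreatment replicate 4, and the cisplatin tumors highest in Plin4 (replicates 5, 3 and 1) were not the one highest in Adipoq (replicate 4). Those tumors carried skeletal muscle RNA: 12 muscle genes summed to 1540 CPM in cotreatment replicate 4 and to 261, 347 and 204 CPM in cisplatin replicates 5, 3 and 1, against 15.6 CPM in cisplatin replicate 4. The part of muscle in the Plin4 level was not tested.

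Of the metabolic genes, Fabp4 was abundant in every tumor, Car3 was abundant only in some tumors, and Pck1 had the lowest group means. Fabp4 was at 25, 169, 32.6, 21.1 and 27.9 CPM in vehicle replicates 1 to 5 and at 83.4, 29.1, 18.8, 60 and 23 CPM in KW6002 replicates 1 to 5. It was at 12.1, 12.7, 13.6, 30.4 and 18.5 CPM in cisplatin replicates 1 to 5 and at 46.4, 35.7, 28.1, 25.7 and 27.3 CPM in cotreatment replicates 1 to 5. Fabp4 had a floor that the other genes lacked, since its lowest tumor still had 359 reads, and 4 of the 5 cisplatin tumors lay below every vehicle, KW6002 and cotreatment tumor. The 10 endothelial genes of a marker list, summed, were at 219 ± 35.5 CPM in vehicle, 210 ± 36.5 CPM with KW6002, 115 ± 15.8 CPM with cisplatin and 127 ± 18.9 CPM with cotreatment (SD, n = 5). Macrophage genes summed to 2960 ± 488, 3020 ± 372, 3830 ± 523 and 3260 ± 499 CPM in the same order, highest with cisplatin. The parts of endothelium and macrophages in the Fabp4 level were not tested. Over the 20 tumors the relation of Fabp4 to the endothelial sum did not pass its test, with a Pearson r of 0.43 (permutation p = 0.0554) and a Spearman rho of 0.37 (p = 0.105). Its r was 0.35 without the 2 tumors farthest from the median endothelial sum, 0.61 in the earlier run and 0.33 in the later run. With the group means removed r was 0.1, and within single groups it ran from -0.33 to 0.56.

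Car3 was at 1.35, 106, 7.18, 0.468 and 0.978 CPM in vehicle replicates 1 to 5 and at 55.2, 8.22, 0.158, 25.7 and 15.6 CPM in KW6002 replicates 1 to 5. It was at 2.91, 0.305, 0.998, 2.12 and 2.01 CPM in cisplatin replicates 1 to 5 and at 19.1, 10.3, 1.64, 23.9 and 0.53 CPM in cotreatment replicates 1 to 5. Cotreatment replicate 4, with the most muscle RNA, was the cotreated tumor with the most Car3, and KW6002 replicate 5, with 330 CPM of muscle genes, had more Car3 than KW6002 replicate 2, which had more Adipoq. Cisplatin replicate 3, however, with 347 CPM of muscle genes, had less Car3 than cisplatin replicate 4 with 15.6 CPM. The part of muscle in the Car3 level was not tested. Pck1 ranged from 0.0326 to 13 CPM in vehicle (median 0.0652), from 0 to 3.05 CPM with KW6002 (median 0.29), from 0 to 0.689 CPM with cisplatin (median 0.0338) and from 0.0312 to 2.48 CPM with cotreatment (median 0.578). Its top cisplatin tumor was replicate 5 and its top cotreated tumor was replicate 2, so Pck1 did not always peak with Adipoq.

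**Figure D2:**
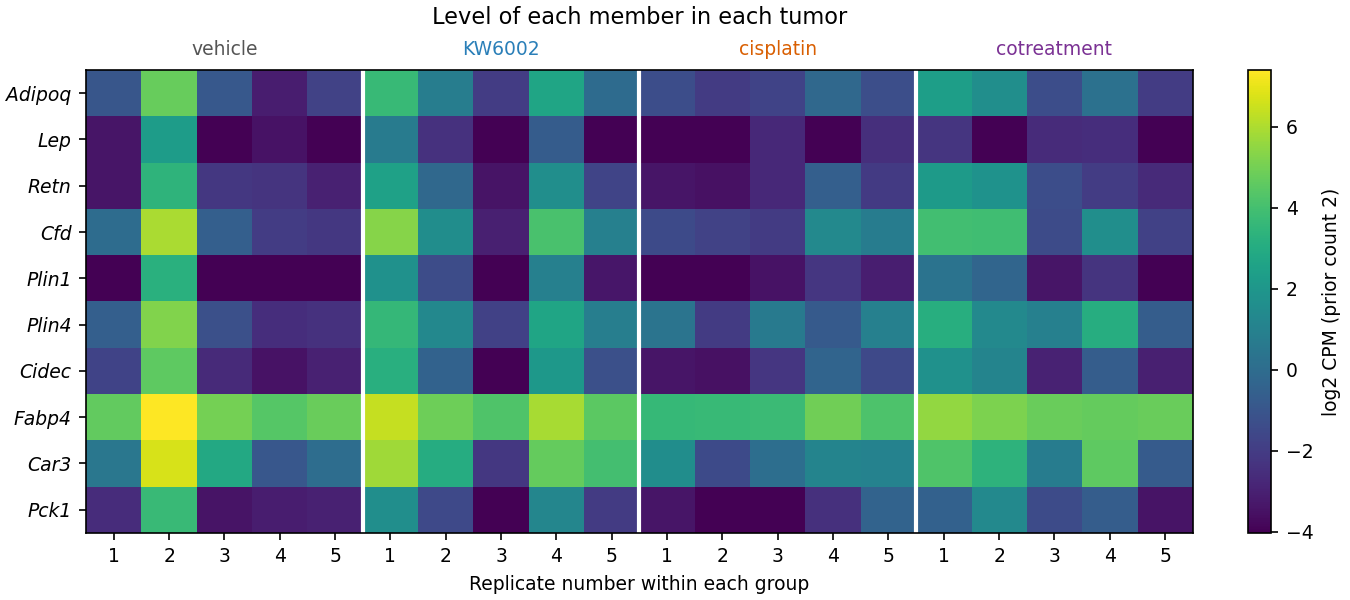
Level of each of the 10 genes (rows, log2 CPM with a prior count of 2) in each tumor (columns, grouped by treatment and numbered by replicate). Bright columns are vehicle replicate 2, KW6002 replicates 1 and 4 and cotreatment replicates 1 and 2, and Fabp4 is the only row that is bright throughout.

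Per unit of transcript length, the order of the genes in vehicle replicate 2 ran from Cfd at 67.5 reads per kilobase and M reads (RPKM), through Fabp4 at 37.6, Car3 at 36.8, Adipoq at 19.2 and Cidec at 12.6, to Retn at 6.66, Plin4 at 6.55, Pck1 at 3.8, Plin1 at 1.99 and Lep at 1.44 RPKM. Lengths were those of all annotated exons of a gene, which for Fabp4 cover the whole gene of 4489 bases and so lower its value. The RPKM order came from 1 tumor and carries no replicate error.

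The members were among the most variable genes of these tumors. The within-group SD of log2 CPM was between 2.13 (Adipoq) and 2.81 (Cfd) for 8 of the tested members and 0.83 for Fabp4, against a median of 0.18 over the 16665 genes. Cfd ranked 12 from the top, Car3 18, Cidec 19 and Adipoq 40, while Fabp4 ranked 420.

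Cisplatin was compared with vehicle to ask whether chemotherapy changed the amount of fat RNA. No member was called changed by edgeR, whereas DESeq2 called 4 lower. The fold changes fitted by edgeR were large and negative, and the direction of 7 of the 9 rested on vehicle replicate 2. In edgeR 0 of the 9 tested members were called, beside 10.6% of all genes tested, and 6 of the 9 had an unadjusted p under 0.05, as did 5143 of the 16665 genes. The median log2 fold change of the members was -3.81, against 0 for all genes. Fabp4 had the smallest adjusted p, with a log2 fold change of -1.65 ± 0.58 (SE, 95% interval -2.88 to -0.42, adjusted p = 0.0622). For Adipoq the log2 fold change was -3.84 ± 1.55 (interval -7.12 to -0.57, adjusted p = 0.102), for Car3 -3.81 ± 1.52 (interval -7.03 to -0.59, adjusted p = 0.0996) and for Plin1 -5.16 ± 2.08 (interval -9.56 to -0.76, adjusted p = 0.102). Cidec, Pck1, Cfd, Retn and Plin4 had log2 fold changes between -4.25 and -2.88, with adjusted p from 0.122 to 0.183. Lep, fitted with no filter on low counts, had a log2 fold change of -4.4 (adjusted p = 0.214), which rests on a single vehicle tumor. Whether it depends on the prior count was not tested.

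Leaving out vehicle replicate 2 turned the sign of 7 of the 9 fold changes. Adipoq was then at a log2 fold change of 0.36 ± 1.29 (interval -2.37 to 3.09, adjusted p = 0.886) and Plin4 at 1.82 ± 1.14 (interval -0.61 to 4.24, adjusted p = 0.322). Plin1 was at 3.76 ± 3.96, a fitted value against 4 vehicle tumors at 0 reads that is no bound. Fabp4, at -0.6 ± 0.4 (interval -1.45 to 0.25, adjusted p = 0.356), and Car3, at -0.58 ± 1.24 (adjusted p = 0.804), stayed below 0 but moved toward it, and no member was called, beside 9.26% of the genes tested in that fit. With DESeq2, the tool of the study, Adipoq, Car3, Cidec and Fabp4 were called lower with cisplatin on all 20 tumors, with adjusted p from 0.0163 to 0.0391, beside 11.5% of all genes, and it called 0 members in every other comparison. Under limma voom with sample weights 0 members were called, and the log2 fold changes with cisplatin lay between -2.58 and -0.59 apart from that of Plin4, which was 0.52.

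**Figure D3:**
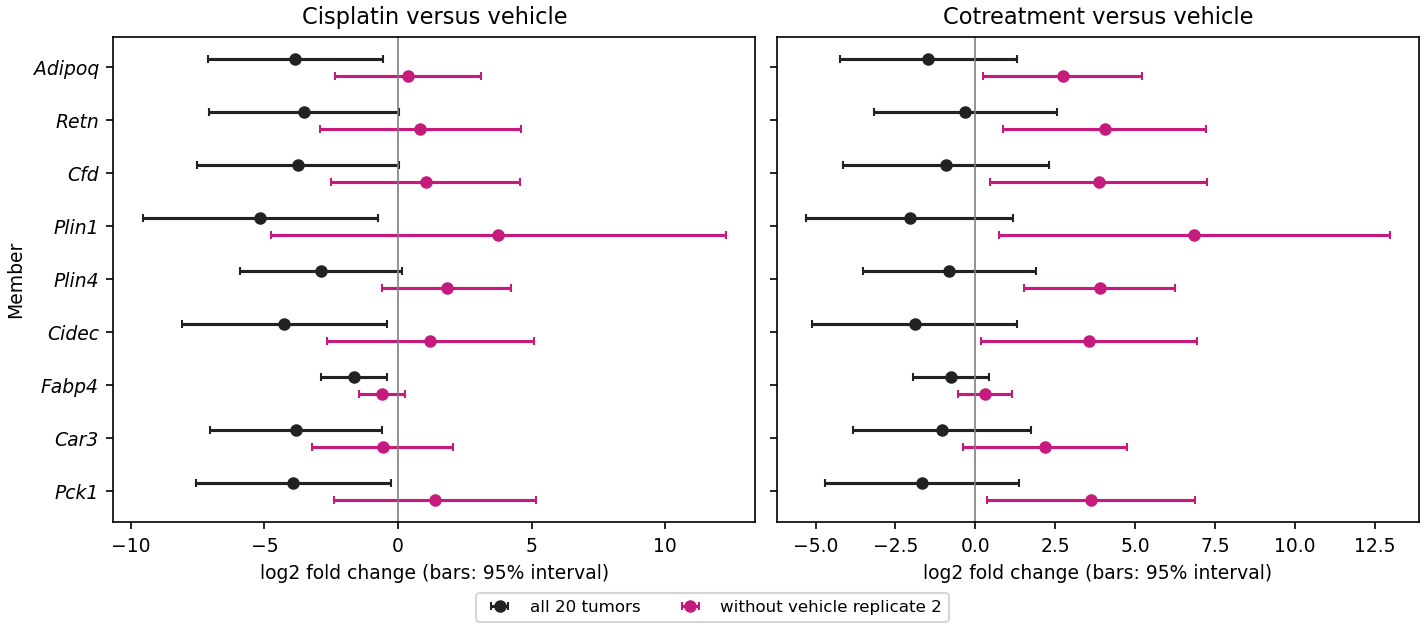
Log2 fold changes from edgeR with 95% intervals for the 9 tested members, cisplatin against vehicle (left) and cotreatment against vehicle (right), fitted on all 20 tumors (black) and without vehicle replicate 2 (pink). In the left panel Adipoq moves from -3.84 to 0.36, and in the right panel every member moves from below 0 to above it.

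The comparison of KW6002 with vehicle asked whether the adenosine receptor antagonist alone changed the fat RNA. In edgeR 0 of 9 members were called and 0 had an unadjusted p under 0.05, with all 9 fold changes below 0 and a median log2 fold change of -0.36. The background was equally empty, at 0% of all genes called (339 at an unadjusted p under 0.05), and DESeq2 called 0 genes. Adipoq had a log2 fold change of -0.33 ± 1.27 (interval -3.02 to 2.37, adjusted p = 1), an interval that spans both directions widely. Without vehicle replicate 2 all 9 fold changes were above 0, from 0.69 for Fabp4 to 8.21 for Plin1 on the log2 scale, and all but Fabp4 had an unadjusted p under 0.05, as did 426 of the 16886 genes tested. The Plin1 value is a fitted one against 4 vehicle tumors at 0 reads and is no bound. Adipoq was then at 3.87 ± 1.19 (unadjusted p = 0.00492), and no gene of the table was called in that fit (adjusted p = 1).

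Cotreatment was set against vehicle, cisplatin and KW6002 to see whether both drugs together left another amount of fat RNA than either alone. Against vehicle, 0 of 9 members were called by edgeR beside 23.5% of all genes, 0 had an unadjusted p under 0.05, and the median log2 fold change was -1.05 against -0.02 for all genes. Adipoq had a log2 fold change of -1.47 ± 1.32 (interval -4.25 to 1.32, adjusted p = 0.415). Without vehicle replicate 2 all 9 fold changes against vehicle were above 0, and Plin4 (log2 fold change 3.89 ± 1.12, adjusted p = 0.0142) and Retn (4.05 ± 1.49, adjusted p = 0.0487) were called higher, beside 22.4% of all genes in that fit. Plin4, like Car3, was high in the muscle-rich cotreatment replicate 4.

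Against cisplatin alone, where no vehicle tumor is in either group but all 20 tumors share the filter, the scaling and the estimate of the spread, all 9 fold changes were above 0 with a median log2 fold change of 2.37, yet 0 members were called beside 4% of all genes and 0 had an unadjusted p under 0.05. Adipoq stood at 2.37 ± 1.54 (interval -0.89 to 5.63, adjusted p = 0.374), Retn at 3.21 ± 1.68 (adjusted p = 0.266) and Fabp4 at 0.9 ± 0.57 (adjusted p = 0.364). Without vehicle replicate 2 the Adipoq fold change was the same with a smaller error (2.37 ± 1.04, unadjusted p = 0.0366, adjusted p = 0.188). In that fit 5 of the 9 members (Adipoq, Retn, Plin4, Fabp4 and Car3) had an unadjusted p under 0.05, as did 3836 of the 16886 genes tested, and 0 were called beside 3.8% of all genes. Within the later code run alone, which holds 3 cisplatin and 2 cotreated tumors, the Adipoq log2 fold change was 0.48 (adjusted p = 0.955), and a fit to all tumors that included the run gave 2.07 (adjusted p = 0.513). Both fat-rich cotreated tumors, replicates 1 and 2, belong to the earlier run. Against KW6002 alone, 0 members were called beside 23.3% of all genes, 0 had an unadjusted p under 0.05, and Adipoq had a log2 fold change of -1.14 ± 1.31 (adjusted p = 0.541). These comparisons share their cotreatment tumors, and those against vehicle share the vehicle tumors.

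The interaction, meaning the KW6002 effect in the presence of cisplatin minus that in its absence, was called for 0 of 9 members beside 0.066% of all genes, and 0 had an unadjusted p under 0.05. The Adipoq interaction was 2.7 ± 2 on the log2 scale (interval -1.54 to 6.94, adjusted p = 0.62), and it was -1.51 without vehicle replicate 2, where 8 of the 9 member interactions were below 0 and 0 were called. A test for any difference among the 4 groups, with no fold limit, called 0 of 9 members beside 35.7% of all genes, again with 0 at an unadjusted p under 0.05. The smallest adjusted p there was 0.142, for Fabp4. Without vehicle replicate 2 that test called 6 members (Adipoq, Retn, Cfd, Plin1, Plin4 and Cidec, adjusted p from 0.0208 to 0.0494) beside 33.7% of all genes, whereas with KW6002 replicate 1 left out as well, it called Plin4 alone.

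Adipoq was also compared by a two-sided exact permutation test of its mean log2 CPM, which weighs 1 extreme tumor less than a fit to counts does. The group means of log2 CPM were -0.4 for vehicle, 1.03 for KW6002, -1.32 for cisplatin and 0.18 for cotreatment. On this scale KW6002 exceeded vehicle by 1.43 (exact p = 0.429) and cotreatment exceeded cisplatin by 1.5 (exact p = 0.135), while cisplatin was below vehicle by a difference of -0.92 (exact p = 0.73). The exact p was 0.754 for cotreatment against vehicle and 0.516 for cotreatment against KW6002. Over these 5 comparisons the adjusted p was from 0.675 to 0.754, and 0.00794 is the smallest exact p that 252 arrangements of 5 and 5 tumors can give.

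Across tumors, the members varied together. Over the 20 tumors, the log2 CPM of the 9 other members followed that of Adipoq with Pearson r of 0.97 for Plin1 and Cidec, 0.96 for Cfd, 0.93 for Retn, 0.91 for Car3, 0.9 for Pck1, 0.88 for Plin4, 0.87 for Fabp4 and 0.8 for Lep. The permutation p was 1e-05, the smallest that the resampling can give, for 8 of them and 4e-05 for Lep, and adjusted over the 9 relations it stayed at or under 4e-05. Spearman rho ranged from 0.63 for Lep (adjusted p = 0.00367) to 0.95 for Cfd, Cidec and Car3. Without the tumors farthest from the median, vehicle replicate 2 and KW6002 replicate 1, r was between 0.75 and 0.95 for 8 members and 0.56 for Lep. In the earlier run r was between 0.73 (Lep) and 0.99 (Plin1 and Cidec), and in the later run between 0.86 (Lep) and 0.97 (Cidec). Within single groups of 5 tumors the relation to Adipoq did not hold everywhere: the lowest r was -0.23 for Lep, 0.11 for Plin4 and 0.43 for Pck1, whereas Retn kept at least 0.9.

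**Figure D4:**
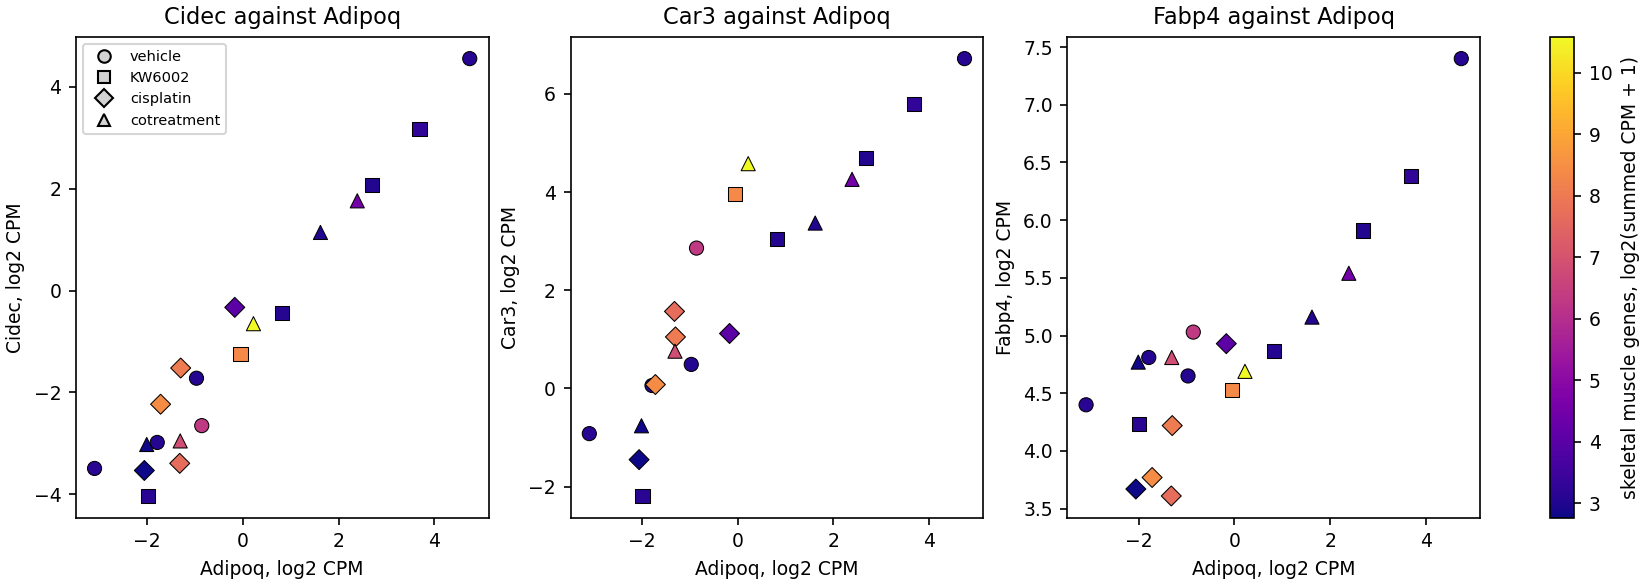
Log2 CPM of Cidec, Car3 and Fabp4 (vertical axes) against Adipoq (horizontal axes) in 20 tumors, with marker shape for treatment and color for the log2 of the summed CPM of 12 skeletal muscle genes plus 1. Cidec tracks Adipoq (r = 0.97), Car3 lies highest for its Adipoq level in the muscle-rich cotreatment replicate 4 and KW6002 replicate 5, and Fabp4 levels off where Adipoq is low.

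No relation of the members to the summed muscle RNA passed its test: over 10 relations, Pearson r with the muscle sum ranged from -0.37 (Fabp4) to 0.19 (Plin4), and every adjusted permutation p was 0.595. Without the tumors farthest from the median muscle sum, cisplatin replicate 3 and cotreatment replicate 4, r was 0.05 for Plin4 and 0.09 for Car3. With group means removed r was 0.22 for Plin4, 0.28 for Car3 and negative for every other member. Within single groups r ran from -0.17 to 0.97 for Plin4 and from 0.17 to 0.56 for Car3.

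All 10 members are protein-coding genes with positions in the GRCm38 build. The hormone genes lie at chr16:23146536-23158028 (Adipoq, plus strand), chr6:29060220-29073877 (Lep, plus) and chr8:3655770-3660110 (Retn, plus), and Cfd lies at chr10:79890853-79892655 (plus). The droplet genes lie at chr7:79720218-79732903 (Plin1, minus), chr17:56100591-56109803 (Plin4, minus) and chr6:113424634-113435760 (Cidec, minus). Fabp4 and Car3 share a chromosome, at chr3:10204088-10208576 (minus) and chr3:14863512-14872523 (plus), and Pck1 lies at chr2:173153048-173159273 (plus). None of the 10 genes overlaps another of them.

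Promoter sequences are shown because the members moved together across tumors, and they hold the 250 bases before the start of transcription. Of the 10 members, 8 were found in the RefSeq promoter table of the GRCm38.p6 build, with 9 windows because Cidec had 2, and Fabp4 and Car3 are named only. The windows were searched on both strands for AGGTCA, a half-site of nuclear receptors such as PPARG, for TTGCNNAA, a core of C/EBP sites, and for TATAAA, the TATA box, and these motifs were chosen after the values were known. TTGCNNAA occurred in windows of 3 members (Lep, Plin1 and Cidec) and in 9.56% of all 32851 windows of the same length. AGGTCA and TATAAA occurred in 0 member windows, against 14% and 12.4% of all windows. The windows below are those with the C/EBP letters, with each match in capitals, and that of Adipoq, which has none; all read 5′ to 3′ on the strand of the gene.
Lep, chr6:29059971-29060220, plus strand: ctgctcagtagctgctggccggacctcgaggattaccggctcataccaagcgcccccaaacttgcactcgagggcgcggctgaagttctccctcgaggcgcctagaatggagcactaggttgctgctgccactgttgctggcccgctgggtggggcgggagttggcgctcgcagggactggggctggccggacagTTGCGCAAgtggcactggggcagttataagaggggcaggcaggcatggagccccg
Plin1, chr7:79732777-79733026, minus strand: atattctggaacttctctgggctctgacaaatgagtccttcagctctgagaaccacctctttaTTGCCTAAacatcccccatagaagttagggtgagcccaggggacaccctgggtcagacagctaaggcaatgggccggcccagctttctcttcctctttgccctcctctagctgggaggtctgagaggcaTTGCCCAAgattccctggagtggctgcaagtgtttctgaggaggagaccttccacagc
Cidec, chr6:113434765-113435014, minus strand: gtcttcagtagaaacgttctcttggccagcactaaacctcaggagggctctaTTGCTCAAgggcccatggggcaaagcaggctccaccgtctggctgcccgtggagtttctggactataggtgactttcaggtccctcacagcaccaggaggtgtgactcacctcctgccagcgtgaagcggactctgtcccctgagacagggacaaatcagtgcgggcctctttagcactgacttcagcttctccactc
Adipoq, chr16:23146286-23146535, plus strand: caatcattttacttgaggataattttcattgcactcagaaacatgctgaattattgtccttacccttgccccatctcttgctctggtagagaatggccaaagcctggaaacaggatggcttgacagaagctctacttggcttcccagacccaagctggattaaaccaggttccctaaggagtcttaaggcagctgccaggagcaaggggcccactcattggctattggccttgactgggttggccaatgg
The match in Lep lay 55 bases before the start, those in Plin1 lay 187 and 58 bases before it, and that in the second Cidec window lay 198 bases before it. A match is a description of letters and was not related to the measured levels.

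The composition of the fat RNA could be compared only in the 5 tumors with at least 100 Adipoq reads. For the droplet genes Plin1 and Cidec and for Car3 the counting intervals of all 5 overlapped. Per 100 Adipoq reads Plin1 had 34.8 (exact 95% interval 30.1 to 40.1), 26 (20.8 to 32.2), 29.6 (21.8 to 39.8), 22.6 (16.2 to 31.1) and 24.8 (15.6 to 38) reads in vehicle replicate 2, KW6002 replicates 1 and 4 and cotreatment replicates 1 and 2. For the droplet gene Plin4 they did not, with 142 (130 to 157) reads in vehicle replicate 2, 92 (79.8 to 106) in KW6002 replicate 1 and 168 (142 to 201) in cotreatment replicate 1. Plin4 had 99 reads (80.9 to 121) in KW6002 replicate 4 and 83.5 reads in cotreatment replicate 2, whose interval lay below that of the other cotreated tumor. The hormone genes also differed between tumors beyond counting error. Lep had 18.1 reads (15 to 21.8) in vehicle replicate 2, 12.4 (9.07 to 16.6) and 8.54 (4.88 to 14) in the KW6002 tumors, and 2.83 (1.03 to 6.26) and 0 (0 to 3.44) in the cotreated tumors. Retn ran the other way, with 39.6 (34.5 to 45.3), 44.4 (37.1 to 53) and 46.7 (36.1 to 60.1) reads in the first 3 tumors and 87.7 (71.7 to 107) and 113 (86.5 to 147) in the cotreated pair. Cfd was highest in cotreatment replicate 2, at 488 reads (396 to 605), against 234 (215 to 255) in vehicle replicate 2. So was Fabp4, at 1190 reads (977 to 1460) against 635 (588 to 687). Pck1 differed even within the cotreated pair, with 12.7 (8.2 to 19.1) and 82.6 (61.8 to 110) reads. All ratios of a tumor share its Adipoq count, and the part of that count in these differences was not tested. The intervals cover counting error only, each ratio belongs to 1 tumor, and no test between treatments was made. Both cotreated tumors and KW6002 replicate 1 were in the earlier library run, and the other pair was in the later run.

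**Figure D5:**
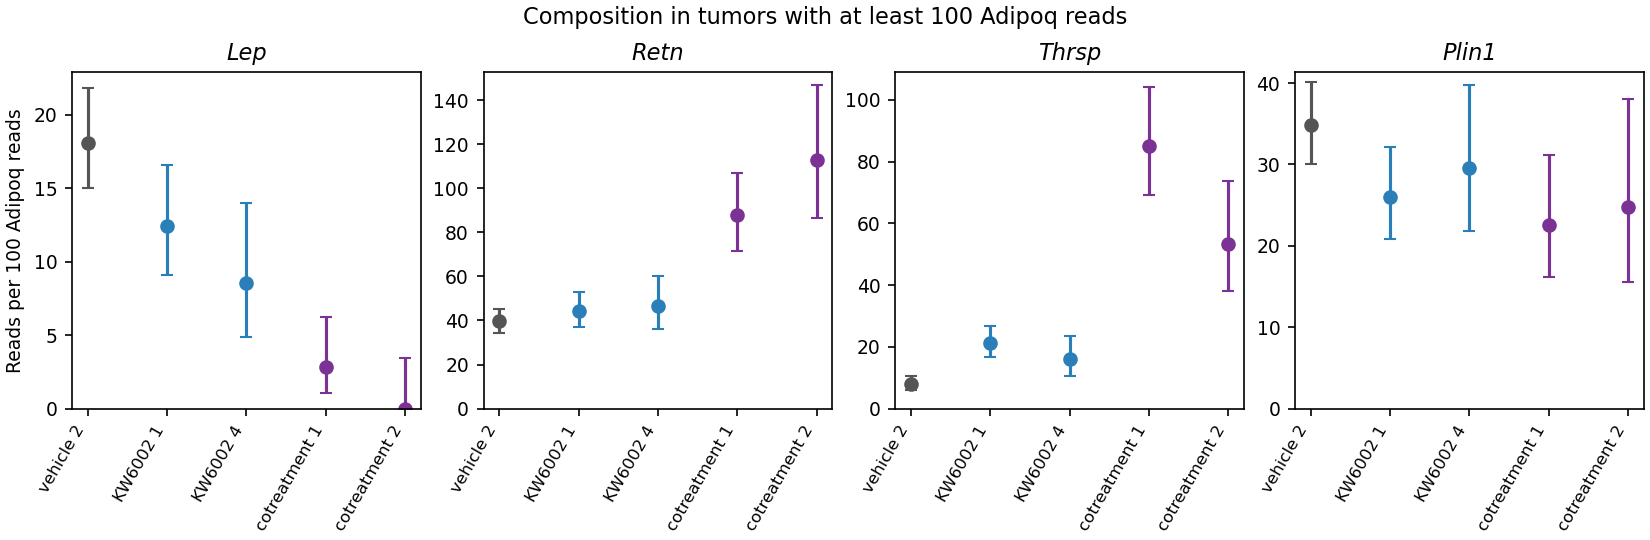
Reads of Lep, Retn, Thrsp and Plin1 per 100 Adipoq reads in the 5 tumors with at least 100 Adipoq reads, with exact 95% counting intervals. Lep lies at 18.1 in vehicle replicate 2 and at 0 in cotreatment replicate 2, while Plin1 lies between 22.6 and 34.8.

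Outside the members, likeness of a gene to them was the Pearson r over 20 tumors with the mean standardized log2 CPM of the 9 tested members, and of 16656 other genes 7 exceeded 0.9 and 19 exceeded 0.8. The 10 highest were Ces1d (0.956), Hp (haptoglobin, 0.954), Apoc1 (0.933), Slc36a2 (0.929), Thrsp (0.924), Cyp2e1 (0.91), Gpd1 (glycerol 3-phosphate dehydrogenase, 0.905), Lipe (hormone-sensitive lipase, 0.898), Mrap (0.881) and Ephx2 (0.85). Thrsp, a regulator of fatty acid synthesis, was highest in cotreatment replicate 1, where it had 84.9 reads per 100 Adipoq reads (69.2 to 104) against 8.07 (6.11 to 10.5) in vehicle replicate 2.

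A list of 38 other adipocyte genes included lipogenic enzymes that many cell types make. With cisplatin 4 of the 34 tested genes were called, all lower (Acly, Mgll, Scd1 and Trarg1), beside 10.6% of all genes, and the list median log2 fold change was -0.16. With cotreatment 7 were called against vehicle beside 23.5% of all genes, with 3 higher (Cebpa, Pnpla2 and Nrip1) and 4 lower (Mgll, Aoc3, Fasn and Acly). The 4 most abundant genes of the list were Cav1, Fasn, Acly and Scd1 at mean levels of 826, 345, 326 and 267 CPM, and Scd1 (stearoyl-CoA desaturase) had a log2 fold change of -1 ± 0.31 with cisplatin (adjusted p = 0.0373). Genes of brown or beige fat were led by Dio2, Cox7a1, Prdm16 and Ppargc1a at 4.49, 0.877, 0.652 and 0.301 CPM. Only these 4 of the 9 listed genes could be tested. With cisplatin 1 was called higher (Dio2, beside 10.6% of all genes), and with cotreatment against vehicle 2 were (Dio2 and Ppargc1a, beside 23.5%). Cox7a1 and Prdm16 were not called, with log2 fold changes of -0.2 and -0.36 with cisplatin and -0.5 and -0.52 with cotreatment. Fat progenitor genes, led by Dcn, Pdgfra, Cd34 and Ly6a at 1320, 255, 94.1 and 62.4 CPM, were called in 1 of 9 cases with cisplatin (lower) and in 0 with cotreatment against vehicle, beside the same shares of all genes. Which cells of the bulk tumors made the RNA of this list was not tested.

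Markers of other cells were read beside the members in the same way, with 10.6% of all genes called with cisplatin and 23.5% with cotreatment. The 12 skeletal muscle genes, led by Acta1, Myh4, Ttn and Tnnt3, summed to between 5.79 and 1540 CPM, with 0 called with cisplatin and 2 called higher with cotreatment against vehicle. All 10 endothelial genes were called lower with cisplatin (median log2 fold change -0.86) and 8 with cotreatment, the most abundant being Pecam1, Cdh5, Egfl7 and Esam. Macrophage genes, led by Lyz2, Mrc1, C1qb and C1qa, summed to between 2360 and 4420 CPM, with 1 of 10 called higher with cisplatin, and 2 higher and 2 lower with cotreatment. Of 10 skin genes, led by Sbsn, Krt10, Trp63 and Krtdap, 2 could be tested and 1 was called higher in each of the cisplatin arms. All 5 tested red blood cell genes (of 7, led by Hbb-bs, Hbb-bt, Alas2 and Hba-a1) were called lower in both arms. With KW6002 alone, 0 genes of any of these lists were called.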

How the data were processed

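Sample labels gave the group and replicate number of each tumor. Tumors were treated as separate animals, since the study describes injection into 1 flank. The authors deposited raw counts per Ensembl gene, made from stranded poly(A) libraries that were aligned to mm10 (GRCm38) with STAR and counted with HTSeq 0.6.1p1, as the study and the submitters' processing notes state. The strand setting of the counting is not given in the sources used here. No column was left unused, and all rows named a gene ID.

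Counts were analysed with edgeR 4.0.16 in R 4.3.3 (filterByExpr by group, TMM scaling, robust quasi-likelihood fit of 4 group means to all 20 tumors, two-sided tests, adjustment over all genes tested), and the code was tested on simulated data. Log2 CPM used a prior count of 2. Positions and exon lengths came from GENCODE (GRCm38). Permutation tests of correlations used 100000 resamples. Ranks and counting intervals were computed with scipy 1.17.1. Counting intervals were exact at 95%, and since reads carried no molecular identifiers they cover counting error only.

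The 10 members, the 5 restricted members, the 8 other gene lists and the naming rule (all members, the 4 most abundant genes of each other list, and the 10 genes most like the members) were chosen with earlier results of these data known. Genes of the list of other adipocyte genes that were called are named as well, after their values were seen. Alternatives were DESeq2 1.42.0, limma 3.58.1 (voom with sample weights), other scalings and filters, no fold limit, a replicate block, the code run as a term, the later run alone, only the groups compared and each tumor left out. Leaving out both tumors richest in fat RNA was added after seeing the data.

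The 40 replicate pairs differed by more than counting error, with a chi-square per gene of at least 8.79.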

Additional observations from a re-analysis of the deposited data

Results flagged for a closer look

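In groups of 5 tumors, 44 sets of CPM values (the 10 members and their sum in each of 4 groups) were tested for a sample far from the rest by the ratio of its gap to the group's range. Chance passes the limit in about 1 of 20 sets if values are normally distributed. That rate was not checked for CPM, and the ratio was not taken on the log2 scale. A total of 15 passed, of which 11 were vehicle replicate 2, 3 were cisplatin tumors, 1 was a cotreated tumor and 0 were KW6002 tumors. Since the members vary together, these are not independent.

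Vehicle replicate 2 stood above its group for the secreted products, with Adipoq at 26.6 CPM (next tumor 0.49), Lep at 4.82 CPM (next 0.0345), Retn at 10.5 CPM (next 0.163) and Cfd at 62.3 CPM (next 0.933). It stood above its group for the droplet genes, with Plin1 at 9.25 CPM (next 0), Plin4 at 37.9 CPM (next 0.622) and Cidec at 23.4 CPM (next 0.242). The same held for Fabp4 at 169 CPM (next 32.6), Car3 at 106 CPM (next 7.18), Pck1 at 13 CPM (next 0.104) and the sum of the members at 462 CPM (next 41.5). Its muscle genes summed to 7.42 CPM, the median of its group.

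In the cisplatin group, replicate 4 stood apart for Adipoq at 0.828 CPM (next 0.345) and Retn at 0.613 CPM (next 0.172), and replicate 5 for Pck1 at 0.689 CPM (next 0.123). These are 27 Adipoq reads, 20 Retn reads and 24 Pck1 reads. In the cotreatment group replicate 2 stood apart for Pck1 at 2.48 CPM (next 0.661).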

How the results depend on the processing

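Leaving aside the setting added after seeing the data, 211 counts of members called stayed at 0 and 3 did not. For the 9 members with cisplatin against vehicle and for Adipoq alone in the other comparisons, 16 fold changes turned sign, 4 gained a call and 396 did neither. DESeq2 called 4 members lower with cisplatin than vehicle (Adipoq -3.84, Cidec -4.26, Fabp4 -1.65 and Car3 -3.78 on the log2 scale), with 2 members left without an adjusted p in the interaction. Under limma voom with sample weights, the log2 fold change was 2.03 for Adipoq with KW6002, 0.52 for Plin4 with cisplatin, 0.76 for Adipoq with cotreatment, all against vehicle, and -0.05 for the Adipoq interaction, and with cisplatin it was -1.23 for Adipoq. With a replicate block the Adipoq log2 fold change with KW6002 against vehicle was 0.6, the cisplatin folds lay between -4.02 and -0.71, and 0 members were called in any comparison. In the later run alone Adipoq was at -1.43 with KW6002, -3.83 with cisplatin and -3.35 with cotreatment against vehicle. The numbers did not pair the tumors: among 30 same-numbered pairs the correlation of deviations ran from -0.39 to 0.39, with 12 above 0.1. Summing the 5 restricted members gave means of 15.3 CPM in vehicle, 10.7 CPM with KW6002, 0.909 CPM with cisplatin and 5.4 CPM with cotreatment, against 117, 92.7, 22.2 and 61.1 CPM for all 10. The causes of these differences were not tested, except that the restricted sum holds fewer genes.

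With each tumor left out in turn, members called ran from 0 to 2 for cotreatment against vehicle and from 0 to 6 for any difference, and were 0 in every other comparison. Vehicle replicate 2 gave each nonzero count. The log2 fold change of Adipoq ran from -1.26 to 3.87 with KW6002, from -4.31 to 0.36 with cisplatin, from -2.23 to 2.73 with cotreatment and from -1.51 to 3.64 for the interaction. Leaving out KW6002 replicate 3 put the first of these at 0. Against vehicle, cisplatin folds ran from -4.67 to 0.84 for Retn, -4.41 to 1.04 for Cfd, -6.14 to 3.76 for Plin1, -3.2 to 1.82 for Plin4, -5.19 to 1.21 for Cidec and -5.99 to 1.39 for Pck1. The upper Plin1 value is a fitted one against vehicle tumors at 0 reads and is no bound.

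Without the 2 tumors of highest fat RNA (vehicle replicate 2 and KW6002 replicate 1, chosen after seeing the data), 2 members were called for cotreatment against vehicle (Plin4 and Retn) and 1 for any difference (Plin4). Adipoq log2 fold changes against vehicle were then 2.93 with KW6002, 0.35 with cisplatin and 2.72 with cotreatment, and its interaction was -0.56. Those with cisplatin were 0.83 for Retn, 1.03 for Cfd, 3.75 for Plin1, 1.81 for Plin4, 1.2 for Cidec and 1.38 for Pck1. That of Plin1 is again a fitted value and no bound.

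Depth limits Lep and Plin1 most, with at most 3 reads in 13 and 12 of the 20 tumors. Requiring 10 counts or more in each tumor left 1 member tested (Fabp4), and fits of only the groups compared tested 5 to 9.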
